A study of Mus musculus with 6 samples.

Results

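The genes described here carry cells into and through mitosis. A list of 59 mouse genes, chosen by symbol from the regulators of mitotic entry, the spindle assembly checkpoint, the kinetochore, chromosome condensation, anaphase and cytokinesis, was looked up in the gene-level read counts of cultured embryonic ureters. A gene was kept when it had 10 or more counts in at least 3 of the 6 libraries, and all 59 met this condition, out of 56748 gene identifiers in the count table. The lowest count of any member in any library was 264 (*Cenpk*) and the highest was 18381 (*Top2a*), so that no member passed only through the group in which it was high. The members were divided by their role into 9 steps, namely mitotic entry (11 genes), transcription of mitotic genes (2), spindle and centrosome (8), the checkpoint (6), the chromosomal passenger complex with the shugoshins (6), the kinetochore (12), anaphase (5), cytokinesis (4) and condensation (5).

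Ureters were dissected from wildtype NMRI mouse embryos at E12.5 and kept on transwell membranes for 18 h, either with 15 mM LiCl (3 samples, hereafter LiCl) or with water (3 samples, controls). All 6 samples were therefore exposed to the same dissection and the same medium, for which the labels list no serum, and differed by label in the lithium salt alone. Lithium ions inhibit the kinase GSK3, which otherwise marks β-catenin for degradation, and LiCl is used to activate canonical WNT signalling, although the ion also acts on other enzymes. The sources used here do not give the number of ureters in a sample or say whether samples came from separate litters, so that the p-values measure the spread between these samples, which may be technical.

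A dividing cell enters mitosis when cyclin B bound to CDK1 becomes active, which requires that the phosphates placed by WEE1 and PKMYT1 are removed by the CDC25 phosphatases. Chromosomes then condense and attach through their kinetochores to the spindle, and the spindle assembly checkpoint holds back the anaphase-promoting complex (APC/C), a ubiquitin ligase, until every kinetochore is attached. Once it is released, the APC/C with its coactivator CDC20 marks securin and cyclin B for destruction, separase cuts cohesin, and the cell divides. Most of these genes are transcribed in a wave in late G2 phase and mitosis and are repressed in resting cells, a regulation in which the DREAM and MuvB complexes with MYBL2 and FOXM1 take part and in which the cell cycle genes homology region (CHR, most often TTTGAA) and the CCAAT box of the promoters have a role.

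The libraries held between 28473436 and 31266945 counts in genes. Markers of the ureteric mesenchyme (6 genes) summed to 1483 to 1518 CPM in the controls and 1279 to 1329 CPM after LiCl, where CPM is the read count of a gene scaled to the size of its library after TMM correction. Markers of the ureteric epithelium (7 genes) summed to 1004 to 1273 CPM in the controls and 791 to 828 CPM after LiCl. Markers of both layers of the ureter were thus present, but by adjusted p 5 of the 7 epithelial markers were lower after LiCl and 1 (*Epcam*, log2 fold change 0.37) was higher, and 3 of the 6 mesenchymal ones were lower and none higher, beside 22.4% of all genes tested that were lower and 21.1% that were higher. The 7 skeletal muscle genes summed to 6.74 to 8.95 CPM in the controls and 7.11 to 69.9 CPM after LiCl, and LiCl replicates 1 (33.3 CPM) and 3 (69.9 CPM) stood apart in these, while *Myod1* was too low to be tested. Of the 6 tested, 4 were higher by adjusted p, and the median log2 fold change of the 6 was 2.64. In 1 of the 6, all LiCl samples lay above all controls. The summed levels of the endothelial, macrophage, neural and kidney markers overlapped between the groups, as did those of the 6 erythroid markers (455 to 672 CPM in the controls and 616 to 948 CPM after LiCl). Single genes still differed by adjusted p. Of the 5 endothelial markers 1 was lower, and of the 5 macrophage and the 5 kidney markers 2 each were lower and 1 each higher. None of the 5 neural markers passed, and 2 erythroid markers were higher. Because the samples are bulk tissue, a larger share of cells in mitosis cannot be told apart from more RNA of these genes per cell, and the part that the shifts in marker levels have in the differences below was not tested. The lower epithelial and mesenchymal sums were found in all 3 LiCl samples.

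Nearly the whole mitotic set was higher after LiCl, and by more than the spread between replicates. A gene was called when its adjusted p was under 0.05 and its log2 fold change beyond 1 in either direction, in edgeR's quasi-likelihood test with Benjamini-Hochberg adjustment over the 18188 genes tested. By this rule 42 of the 59 members (71.2%) rose and none fell, against 2.74% of all genes tested that rose and 4.59% that fell. By adjusted p alone, 58 members rose and none fell, beside 21.1% of all genes tested that rose and 22.4% that fell, so that 16 of the 17 members that were not called missed the fold threshold only. The other one was *Zwint*, which codes for a kinetochore protein that binds KNL1. The median log2 fold change of the 59 members was 1.23 (2.35-fold), beside a median of -0.01 over all genes tested. In each of the 59 members, all LiCl samples lay above all controls, a pattern found in this direction in 26.4% of all genes tested and in the opposite direction in 27.8%. For 33 members the 95% confidence interval of the log2 fold change lay entirely above 1. When the change was tested against a log2 fold change of 1 itself (edgeR's glmTreat), 27 members were called. The calls that ended were those of *Cdk1*, *Cks2*, *Cdc25b*, *Hmmr*, *Aurkb*, *Incenp*, *Sgo2a*, *Cenpf*, *Cenph*, *Ndc80*, *Spc24*, *Knl1*, *Cdc20*, *Pttg1* and *Ncaph*.

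**Figure D1:**
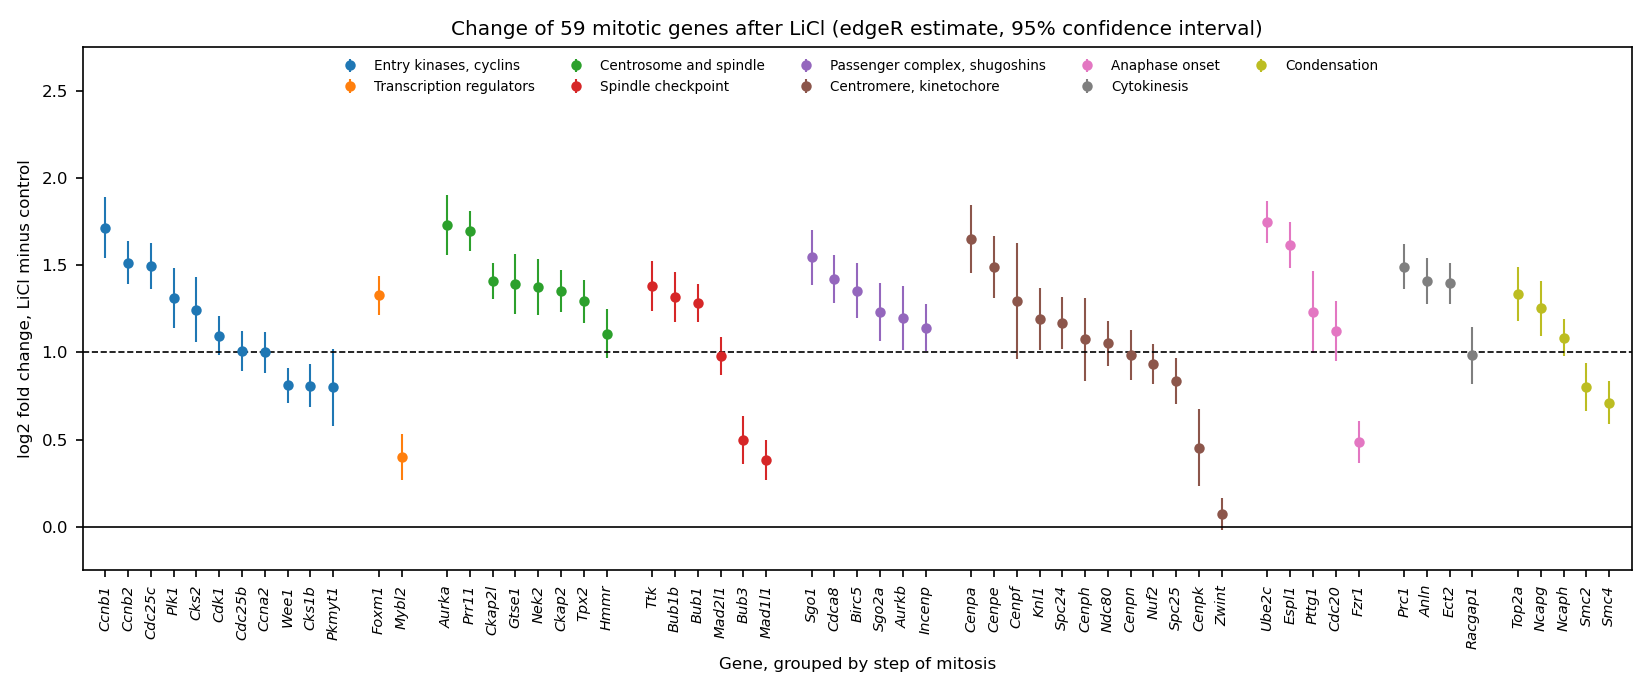
Log2 fold change (LiCl minus control, edgeR) of the 59 mitotic genes with its 95% confidence interval, grouped by step and with the fold threshold of 1 drawn as a line. The values run from 0.07 for *Zwint* to 1.75 for *Ube2c*, no point lies below 0, and 42 genes lie past the threshold.

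The members made up 0.277 to 0.299% of all counts in the controls and 0.598 to 0.629% after LiCl. Their summed level was 2775, 2861 and 2948 CPM in control replicates 1 to 3 and 6013, 6414 and 6227 CPM in LiCl replicates 1 to 3, a ratio of the means of 2.17. The sums were higher after LiCl in every step, by the least in the kinetochore genes (1.90-fold) and the checkpoint genes (1.92-fold) and by the most in the spindle and centrosome genes (2.64-fold). A sum is weighted towards its most abundant genes. In the kinetochore step, *Zwint* alone provided 203 to 209 of the 551 to 563 CPM of the controls.

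**Figure D2:**
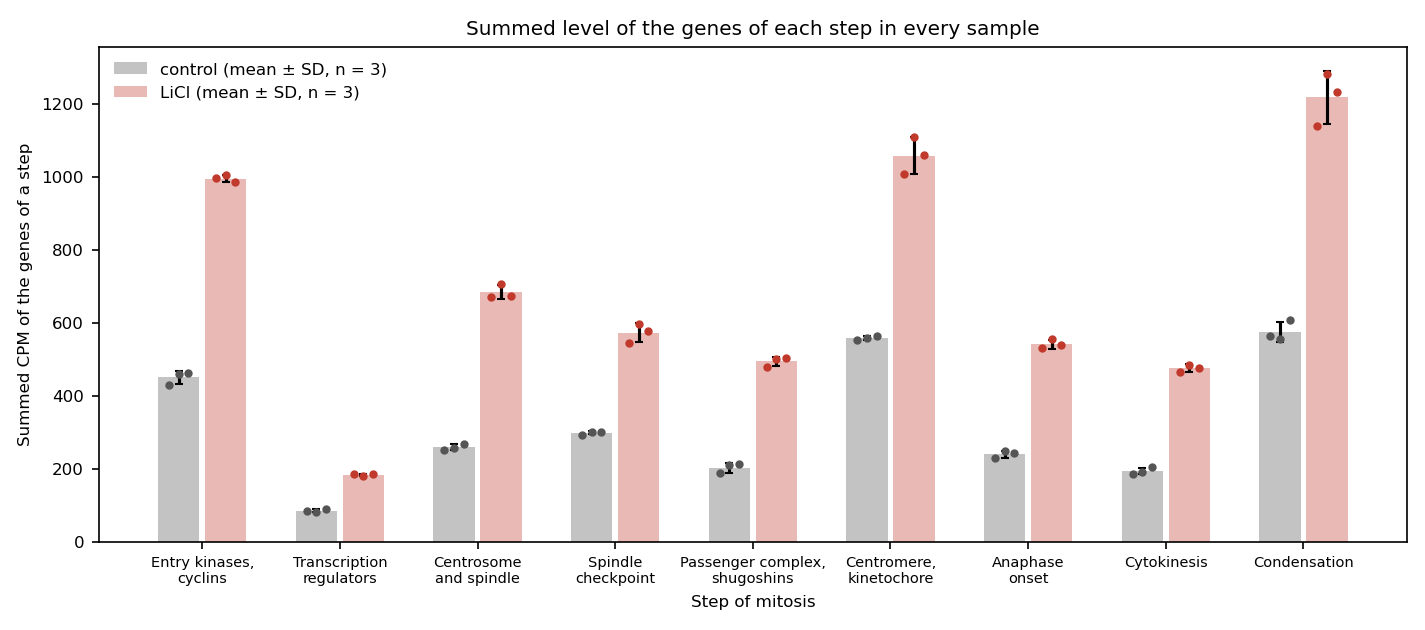
Summed CPM (linear axis) of the members of each mitotic step in the 3 control and 3 LiCl samples, 1 point per sample, with bars for the mean and whiskers for the SD. The LiCl points lie above the control points in all 9 steps; the sum over the spindle genes went from 252 to 269 CPM in the controls to 671 to 706 CPM after LiCl.

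The promoters of these genes were examined for the CHR and the CCAAT box, because the members moved together. RefSeq promoter windows (GRCm38.p6, 250 bases before to 50 bases from the start) were at hand for 49 of the 59 members, as 57 windows. The CHR letters TTTGAA were found on either strand in 56.1% of the member windows and in 17.9% of all 32851 windows of the table, and the variant TTCGAA in 8.77% and 1.56%. CCAAT stood in 80.7% of the member windows and in 37.4% of all windows, and a window with CCAAT together with either CHR form was met in 56.1% and 7.52%. TTCGAA reads the same on both strands, and matches of different motifs can overlap by at most 1 base. A match describes the letters and does not show that a factor is bound there.

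The windows of 6 members are shown from 120 bases before to 30 bases from the start, 5′ to 3′ along the gene's strand, because they hold the genes that rose most in mitotic entry and anaphase (*Ccnb1*, *Ube2c*), the partner genes of cyclin B1 and the APC/C (*Cdk1*, *Ccnb2*, *Cdc20*) and the only member that missed the test (*Zwint*). Capitals mark TTTGAA and CCAAT or their reverse complements TTCAAA and ATTGG.
*Ccnb1* chr13:100786457-100786606 (minus strand): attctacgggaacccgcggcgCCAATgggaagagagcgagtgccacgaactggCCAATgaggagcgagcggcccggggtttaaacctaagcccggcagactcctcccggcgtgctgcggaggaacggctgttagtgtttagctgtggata
*Ccnb2* chr9:70421525-70421674 (minus strand): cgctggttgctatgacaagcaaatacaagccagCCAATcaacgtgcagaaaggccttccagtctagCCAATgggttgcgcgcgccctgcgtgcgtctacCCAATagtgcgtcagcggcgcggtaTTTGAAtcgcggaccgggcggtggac
*Cdk1* chr10:69352883-69353032 (minus strand): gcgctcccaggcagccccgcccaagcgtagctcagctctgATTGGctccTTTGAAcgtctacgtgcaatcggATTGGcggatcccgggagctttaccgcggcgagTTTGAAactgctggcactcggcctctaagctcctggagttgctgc
*Cdc20* chr4:118437314-118437463 (minus strand): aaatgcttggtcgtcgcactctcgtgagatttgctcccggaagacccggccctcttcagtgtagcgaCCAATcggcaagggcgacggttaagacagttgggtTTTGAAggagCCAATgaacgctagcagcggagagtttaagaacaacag
*Ube2c* chr2:164769809-164769958 (plus strand): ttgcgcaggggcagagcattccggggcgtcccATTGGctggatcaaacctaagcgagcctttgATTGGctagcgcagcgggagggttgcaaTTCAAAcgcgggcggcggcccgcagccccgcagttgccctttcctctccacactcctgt
*Zwint* chr10:72654726-72654875 (plus strand): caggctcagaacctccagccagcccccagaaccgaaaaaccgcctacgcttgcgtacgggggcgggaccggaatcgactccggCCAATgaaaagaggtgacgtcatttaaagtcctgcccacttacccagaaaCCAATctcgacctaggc
In this stretch *Cdk1*, *Cdc20*, *Ccnb2* and *Ube2c* held CCAAT and TTTGAA, whereas *Ccnb1* and *Zwint* held CCAAT boxes but neither TTTGAA nor TTCGAA. Other forms of the CHR were not searched. *Ccnb1* (log2 fold change 1.71) and *Zwint* (0.07) were near the opposite ends of the range of changes. Both thus had CCAAT and lacked the searched CHR forms, in the printed bases and in the whole window. Over the genes with a window, the 29 members with both motifs had a median log2 fold change of 1.32 (23 called), the 13 with one of them 1.23 (10 called) and the 7 with neither 0.98 (3 called). The 7 were *Birc5*, *Mad1l1*, *Mad2l1*, *Mybl2*, *Ncaph*, *Nuf2* and *Pttg1*. In 47 of the 57 member windows, the bases after the start were found near the beginning of an annotated transcript. They were not found for *Birc5*, *Mad2l1* and *Mybl2*, so that the starts used and the lack of both motifs are uncertain there. Nor were they found for *Aurka*, *Hmmr*, *Smc2* and *Spc25*, which are among the members with both motifs. For the 10 members for which no window was used, the median was 1.15 (6 called). These medians are descriptions and were not tested.

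Among the 11 genes of mitotic entry, 7 were called higher, and the members that promote entry and those that restrain it rose together. *Ccnb1*, which codes for cyclin B1, stood at 44.7, 50.6 and 56.0 CPM in control replicates 1 to 3 and at 163, 172 and 163 CPM in LiCl replicates 1 to 3. No LiCl value came near a control value, and the level went from 50.5 ± 5.65 to 166 ± 5.03 CPM (mean ± SD, n = 3), a log2 fold change of 1.71 (SE 0.08, adjusted p = 6.7e-07). Its partner kinase gene *Cdk1* stood at 47.0, 50.4 and 49.5 CPM in control replicates 1 to 3 and at 103, 108 and 103 CPM in LiCl replicates 1 to 3. The samples of each group lay within a few CPM of each other, and the log2 fold change was 1.09 (SE 0.05, adjusted p = 7.0e-07). *Plk1*, the gene of the Polo-like kinase that activates CDC25 and acts at centrosomes and kinetochores, was measured at 30.8, 34.1 and 35.6 CPM in control replicates 1 to 3 and at 78.0, 90.7 and 80.9 CPM in LiCl replicates 1 to 3. LiCl replicate 2 was the highest sample, the controls did not overlap with LiCl, and the log2 fold change was 1.31 (SE 0.08, adjusted p = 2.5e-06). The related cyclin gene *Ccnb2* rose by 1.51 on the log2 scale, the phosphatase gene *Cdc25c* by 1.496 and the CDK subunit gene *Cks2* by 1.24 (adjusted p at most 5.8e-06).

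The kinases that hold CDK1 inactive were also higher, with smaller changes. *Wee1* stood at 65.2, 63.4 and 63.9 CPM in control replicates 1 to 3 and at 112, 110.2 and 115 CPM in LiCl replicates 1 to 3, and its log2 fold change was 0.81 (SE 0.04, adjusted p = 2.0e-06). *Pkmyt1*, the membrane-bound counterpart of WEE1, was at 17.01, 21.7 and 19.6 CPM in control replicates 1 to 3 and at 36.2, 30.6 and 34.8 CPM in LiCl replicates 1 to 3. It changed least of the 11 genes, by 0.80 (SE 0.10, adjusted p = 2.3e-04), and it shares exonic sequence with *Paqr4* on the opposite strand. Both rose by adjusted p and lay under the fold threshold, as did *Cks1b* (0.81), which has a near-identical gene copy, and *Ccna2* (1.00, 2.00-fold), the gene of cyclin A2, which acts from S phase to early mitosis. *Ccna2* was just short of the threshold and *Cdc25b* (1.01, 2.01-fold), the gene of the phosphatase that starts CDK1 activation, just past it. *Ccna2* was called without control replicate 2 (1.01) or 3 (1.04) and without LiCl replicate 1 (1.01) or 3 (1.01). It was also called with RLE size factors in place of TMM (1.01), with DESeq2 (1.02) and with no filter on low counts (1.03). The replicate block (1.00, just past) and limma on log2(FPKM + 0.1) (1.01) called it too. *Cdc25b* was not called without control replicate 3 (1.00, just under) or LiCl replicate 1 (0.97). Nor was it called with library size as the only scaling (0.97) or with limma on log2(FPKM + 1) (0.98).

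**Figure D3:**
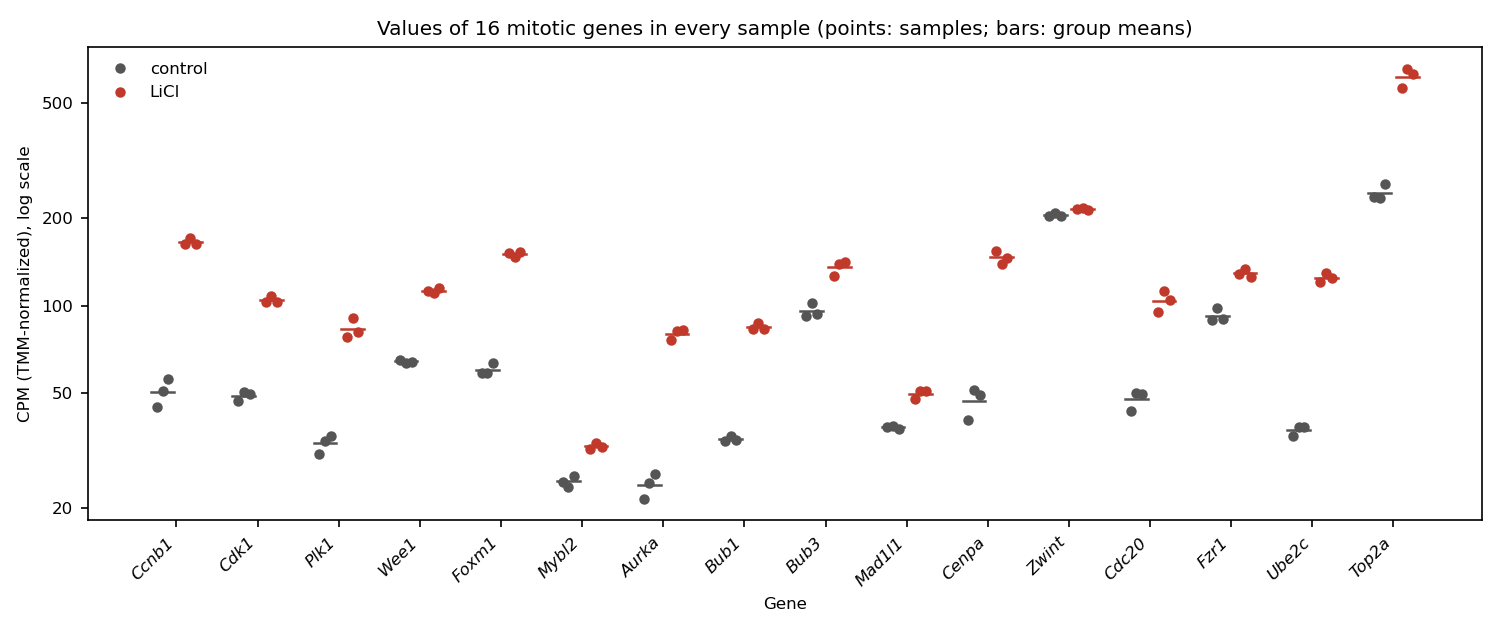
TMM-normalised CPM in each of the 6 samples for 16 of the mitotic genes on a log axis, with points for samples and short lines for group means. The LiCl points of *Ccnb1* and *Ube2c* lie at more than 3 times the control mean, whereas those of *Zwint* lie at 214 to 217 CPM, just above the controls at 203 to 209 CPM.

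The transcription factor genes of the mitotic programme moved by different amounts. *Foxm1*, the forkhead factor that acts in G2 phase, stood at 58.6, 58.5 and 63.3 CPM in control replicates 1 to 3 and at 152, 147 and 153 CPM in LiCl replicates 1 to 3. Each LiCl value was more than double each control value, and the log2 fold change was 1.33 (SE 0.05, adjusted p = 3.2e-07). *Mybl2*, the gene of B-MYB, which acts earlier in the cycle and binds the MuvB complex, stood at 24.7, 23.7 and 25.9 CPM in control replicates 1 to 3 and at 32.02, 33.5 and 32.6 CPM in LiCl replicates 1 to 3. The groups did not overlap, but the change was only 0.40 (SE 0.06, adjusted p = 5.9e-04). As a ratio of FPKM (fragments scaled to transcript length and library size, used here for levels per length), *Foxm1* to *Mybl2* went from 1.95 ± 0.0392 to 3.71 ± 0.164.

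All 8 spindle and centrosome genes were called higher, with a median log2 fold change of 1.38. *Aurka* codes for the centrosomal kinase Aurora A and was measured at 21.6, 24.5 and 26.3 CPM in control replicates 1 to 3 and at 76.0, 81.5 and 82.6 CPM in LiCl replicates 1 to 3. The lowest LiCl sample lay well above the highest control, and the log2 fold change of 1.73 (SE 0.08, adjusted p = 5.5e-07) was the largest of the step. *Tpx2*, whose product activates Aurora A on the spindle, rose by 1.29, and *Nek2*, the kinase gene of centrosome separation, by 1.37. The spindle protein genes *Ckap2* and *Ckap2l* rose by 1.35 and 1.41, *Gtse1* by 1.39 and *Prr11* by 1.69, the last with the smallest adjusted p of all members (2.1e-07). *Hmmr*, whose product binds microtubules and hyaluronan, changed least, with 27.2, 27.5 and 29.0 CPM in the controls and 60.0, 64.0 and 56.4 CPM after LiCl. Its log2 fold change was 1.11 (SE 0.06, adjusted p = 2.2e-06), and its groups did not overlap either, but it was not called with limma on log2(FPKM + 1), where the change was 0.99.

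In the spindle assembly checkpoint the response was uneven. *Ttk*, the gene of the kinase MPS1 that starts the checkpoint signal, had the largest change and stood at 19.2, 21.1 and 21.0 CPM in control replicates 1 to 3 and at 51.7, 56.1 and 51.5 CPM in LiCl replicates 1 to 3. Its log2 fold change was 1.38 (SE 0.06, adjusted p = 7.6e-07), close to those of the kinase gene *Bub1* (1.28) and of *Bub1b* (1.32), which codes for BUBR1. *Bub3*, whose product binds both of these, was at 92.1, 102 and 93.8 CPM in control replicates 1 to 3 and at 126, 139 and 141 CPM in LiCl replicates 1 to 3. The groups were apart by less than in *Ttk*, and it rose by 0.50 (SE 0.06, adjusted p = 2.1e-04). *Mad1l1*, the gene of the kinetochore anchor of MAD2, was at 38.1, 38.6 and 37.6 CPM in control replicates 1 to 3 and at 47.8, 50.6 and 50.6 CPM in LiCl replicates 1 to 3. Its change of 0.38 (SE 0.05, adjusted p = 3.5e-04) was the smallest of the step. *Mad2l1*, the gene of MAD2 itself, was just under the fold threshold at 0.98 (adjusted p = 1.2e-06).

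The chromosomal passenger genes and the shugoshins moved within a narrow range, and all 6 were called. *Aurkb*, the kinase gene of the complex, was measured at 26.4, 33.4 and 30.6 CPM in control replicates 1 to 3 and at 66.0, 69.6 and 71.5 CPM in LiCl replicates 1 to 3. Its log2 fold change was 1.19 (SE 0.08, adjusted p = 7.2e-06). *Incenp*, the scaffold gene, was at 68.9, 75.4 and 78.5 CPM in control replicates 1 to 3 and at 157, 169 and 166 CPM in LiCl replicates 1 to 3, which gave the smallest change of the 6, 1.14 (SE 0.06, adjusted p = 1.5e-06). *Birc5*, the gene of survivin, had 31.5, 36.8 and 34.3 CPM in the controls and 89.0, 81.8 and 91.7 CPM after LiCl. No control sample reached the lowest LiCl sample, and the log2 fold change was 1.35 (SE 0.07, adjusted p = 1.5e-06). *Cdca8*, the gene of borealin, rose by 1.42. The shugoshin genes, whose products protect centromeric cohesin, rose too, with *Sgo1* at 17.4, 16.6 and 19.0 CPM in the controls and 48.8, 54.4 and 51.4 CPM after LiCl. This was the largest change of the step, 1.54 (SE 0.07, adjusted p = 6.8e-07), beside 1.23 for *Sgo2a*, which shares exonic sequence with *Kctd18* on the opposite strand and was not called with limma on log2(FPKM + 1) (0.88).

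The 12 kinetochore genes covered the widest range, and 7 of them were called. *Cenpa*, which codes for the histone H3 variant that marks the centromere, had the largest change and stood at 40.3, 51.0 and 49.0 CPM in control replicates 1 to 3 and at 155, 139 and 146 CPM in LiCl replicates 1 to 3. LiCl replicate 1 was the highest and control replicate 1 the lowest sample, and the log2 fold change was 1.65 (SE 0.09, adjusted p = 1.5e-06). *Cenpe*, a kinesin gene of the outer kinetochore, rose by 1.49. *Cenpf*, a large protein of the outer kinetochore, varied most within the LiCl group of all members, with 75.6, 62.7 and 70.1 CPM in the controls and 130.2, 208 and 173 CPM after LiCl. LiCl replicate 1 was far below LiCl replicate 2, and the log2 fold change of 1.29 (SE 0.15, adjusted p = 1.5e-04) had the largest standard error among the members.

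Of the NDC80 complex, which binds the microtubule, *Ndc80* was measured at 21.8, 22.1 and 21.6 CPM in control replicates 1 to 3 and at 42.9, 46.6 and 46.3 CPM in LiCl replicates 1 to 3. Its log2 fold change was 1.05 (SE 0.06, adjusted p = 1.9e-06), beside 1.17 for *Spc24*, 0.93 for *Nuf2* and 0.84 for *Spc25*, the last pair under the fold threshold. *Ndc80* was not called with limma on log2(FPKM + 1) (0.88). *Knl1*, which recruits the checkpoint proteins, rose by 1.19. The inner kinetochore genes *Cenph* (1.07), *Cenpn* (0.98) and *Cenpk* (0.45) rose by different amounts. *Cenph* was not called without control replicate 1 (0.97), and *Cenpn* was called without control replicate 2 (1.01) or LiCl replicate 2 (1.03). *Cenpk* was the member with the fewest counts and shares exonic sequence with the more abundant *Ppwd1* on the opposite strand, so that its value is uncertain.

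*Zwint* stood apart from the other kinetochore genes. It was at 203, 209 and 203 CPM in control replicates 1 to 3 and at 216, 217 and 214 CPM in LiCl replicates 1 to 3. The samples of the groups did not overlap, but they lay so near each other that the log2 fold change was 0.07 (SE 0.04, adjusted p = 0.18). Its 95% confidence interval of -0.02 to 0.16 ended far below the fold threshold. Per length, *Zwint* had the highest control level of the 12 genes, with 45.8 ± 0.975 FPKM in the controls and 48.7 ± 0.331 FPKM after LiCl, and *Spc25* came next with 9.46 ± 0.637 FPKM in the controls and 17.1 ± 0.386 FPKM after LiCl. Its promoter stretch shown above holds CCAAT boxes and neither TTTGAA nor TTCGAA, as does that of *Ccnb1*, which rose by 1.71. A link between these motifs and the change was not tested.

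The anaphase genes held the largest change of the whole set. *Ube2c*, which codes for the ubiquitin-conjugating enzyme of the APC/C, stood at 35.4, 38.1 and 38.1 CPM in control replicates 1 to 3 and at 120.3, 130.0 and 124 CPM in LiCl replicates 1 to 3. The level went from 37.2 ± 1.57 to 125 ± 4.87 CPM (mean ± SD, n = 3), a log2 fold change of 1.75 (SE 0.05, adjusted p = 2.1e-07). The coactivator genes of the APC/C moved by different amounts. *Cdc20*, which acts from metaphase to anaphase, was at 43.3, 49.9 and 49.7 CPM in control replicates 1 to 3 and at 94.9, 112 and 105 CPM in LiCl replicates 1 to 3. Its log2 fold change was 1.12 (SE 0.08, adjusted p = 7.4e-06), with LiCl replicate 1 the lowest of its group, and its exons overlap those of *Elovl1* on the opposite strand. *Fzr1*, the gene of CDH1, which replaces CDC20 in late mitosis and G1 phase, was at 89.4, 97.8 and 89.9 CPM in control replicates 1 to 3 and at 128, 134 and 125 CPM in LiCl replicates 1 to 3. It rose by 0.48 (SE 0.05, adjusted p = 1.2e-04) and was not called. The genes of an APC/C substrate and of the enzyme that cuts cohesin both rose. *Pttg1*, the gene of securin, had 11.8, 14.01 and 10.4 CPM in the controls and 29.99, 27.2 and 27.9 CPM after LiCl. Its controls had the largest relative spread of all members (a coefficient of variation of 15.1%), and its log2 fold change was 1.23 (SE 0.10, adjusted p = 2.6e-05). *Espl1*, the gene of separase, had 49.6, 47.2 and 54.4 CPM in the controls and 156, 152 and 156 CPM after LiCl, a log2 fold change of 1.62 (SE 0.06, adjusted p = 3.2e-07).

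Of the cytokinesis genes, *Prc1*, which bundles the microtubules of the central spindle, was measured at 43.8, 39.8 and 45.4 CPM in control replicates 1 to 3 and at 119, 122 and 121 CPM in LiCl replicates 1 to 3. The samples of each group lay within a few CPM of each other, and the log2 fold change was 1.49 (SE 0.06, adjusted p = 3.3e-07). *Anln*, the gene of the contractile ring protein anillin, rose by 1.41, and *Ect2*, the gene of the exchange factor that activates RHOA, by 1.396. *Racgap1*, which codes for the subunit of the centralspindlin complex that binds ECT2, was at 59.02, 69.4 and 72.7 CPM in control replicates 1 to 3 and at 131, 134 and 133 CPM in LiCl replicates 1 to 3. It rose by 0.98 (SE 0.07, adjusted p = 1.2e-05), just under the threshold, and was called without control replicate 2 (1.01) or 3 (1.05).

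In the condensation step, *Top2a*, the topoisomerase gene that untangles sister chromatids, had the most counts of all members and was at 236, 235 and 263 CPM in control replicates 1 to 3 and at 563, 658 and 629 CPM in LiCl replicates 1 to 3. LiCl replicate 1 was again the lowest of its group, and the log2 fold change was 1.33 (SE 0.07, adjusted p = 1.5e-06). The condensin core genes *Smc2* and *Smc4* rose less. *Smc2* was at 137, 122 and 139.7 CPM in control replicates 1 to 3 and at 222, 241 and 232 CPM in LiCl replicates 1 to 3, a log2 fold change of 0.80 (SE 0.06, adjusted p = 1.5e-05). *Smc4* was at 112, 115 and 119 CPM in control replicates 1 to 3 and at 177, 199 and 189.8 CPM in LiCl replicates 1 to 3, a log2 fold change of 0.71 (SE 0.05, adjusted p = 1.5e-05). Neither was called, whereas the condensin I subunit genes *Ncaph* (1.08) and *Ncapg* (1.25) were, the latter with exons that overlap those of *Lcorl* on the opposite strand.

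The uneven changes within complexes were described by ratios of FPKM within each sample. Of 22 pairs chosen with these data at hand, 15 had ratios that did not overlap between the groups, 13 of them higher and 2 lower after LiCl. The direction depends on which gene of a pair was taken as the numerator, and no share over other gene pairs was computed. With 3 samples against 3, the exact two-sided permutation test cannot give a p below 0.1, which each of the 15 reached (0.147 after adjustment over the 22 pairs), so that no ratio passed a test. The ratio of *Bub1* to *Bub3* went from 0.582 ± 0.0193 to 1.00 ± 0.0534, and that of *Cdc20* to *Fzr1* from 1.24 ± 0.0830 to 1.93 ± 0.132. The mean ratio of the cyclin genes *Ccna2* to *Ccnb1* was one of the 2 that were lower, and went from 1.30 ± 0.0790 to 0.789 ± 0.0113. The mean ratio of the phosphatase gene *Cdc25c* to the kinase gene *Wee1* went from 0.141 ± 0.00499 to 0.227 ± 0.00867. The ratios of the other 7 pairs overlapped between the groups, including *Aurkb* to *Incenp*, from 0.595 ± 0.0482 to 0.619 ± 0.0144, *Pkmyt1* to *Wee1*, from 0.285 ± 0.0385 to 0.282 ± 0.0213, and *Nuf2* to *Ndc80*, from 1.33 ± 0.0300 to 1.23 ± 0.0929. All ratios are given as mean ± SD of 3 samples.

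Levels per length were compared in the FPKM values. In the controls they ran from 1.58 FPKM (*Sgo2a*) to 46.0 FPKM (*Cks1b*) with a median of 8.81, and after LiCl from 2.38 FPKM (*Cenpk*) to 81.5 FPKM (*Cks1b*) with a median of 19.4. *Ccnb1* was at 11.8 ± 1.38 FPKM in the controls and 39.3 ± 1.12 FPKM after LiCl. *Cdk1* was at 9.82 ± 0.416 FPKM in the controls and 21.2 ± 0.495 FPKM after LiCl. *Ube2c* was at 14.1 ± 0.683 FPKM in the controls and 48.0 ± 1.82 FPKM after LiCl. Over the 59 genes, the log2 fold change and the control FPKM had a Spearman correlation of -0.20, which is a description, since the genes share the same libraries. The median coefficient of variation of CPM over the members was 5.36% in the controls and 4.02% after LiCl.

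**Figure D4:**
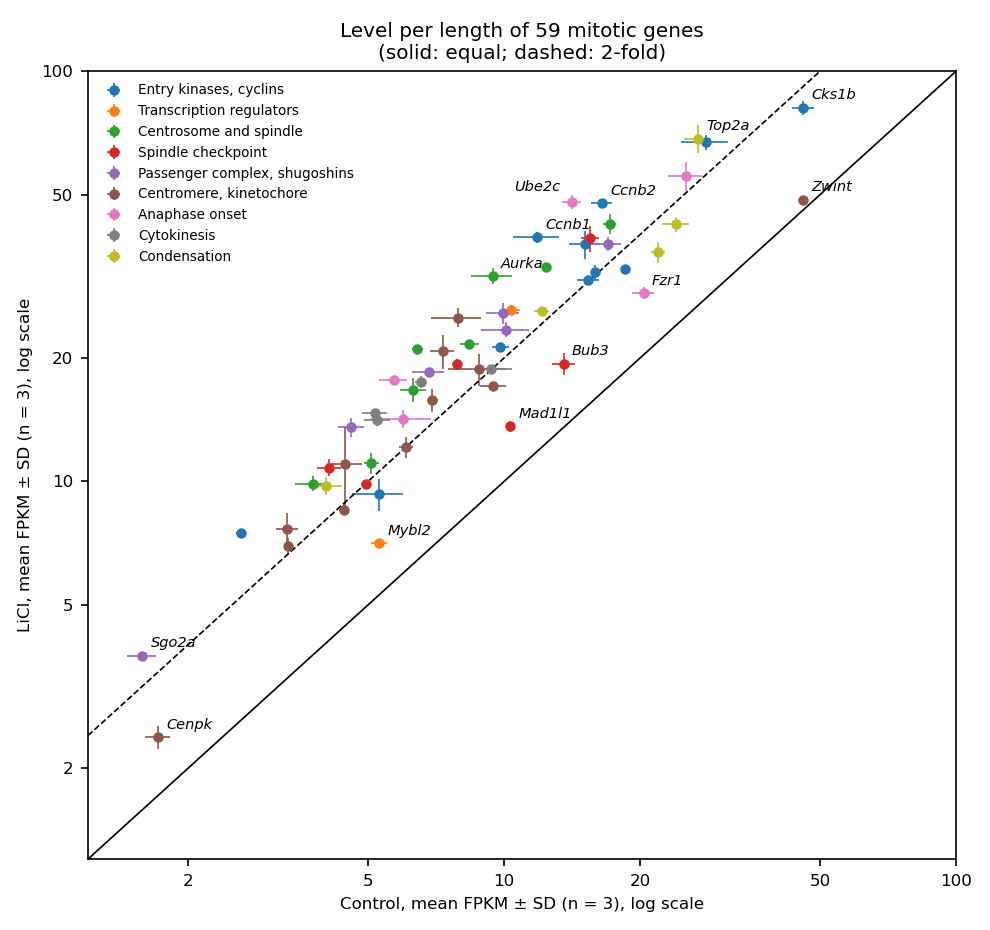
Mean FPKM of each member in the controls (x axis) and after LiCl (y axis), both on log axes, with the line of equal level. All 59 points lie above the line, *Zwint* (45.8 and 48.7 FPKM) nearest to it.

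The replicates within a group differed from each other across many members at the same time. Control replicate 1 was the lowest control in 35 members and control replicate 3 the highest in 29, and LiCl replicate 1 was the lowest LiCl sample in 31 and LiCl replicate 2 the highest in 34. LiCl replicate 2, the sample with the highest members' sum, was the LiCl sample whose skeletal muscle sum (7.11 CPM) lay within the range of the controls. Without LiCl replicates 1 and 3, LiCl replicate 2 alone was compared with the 3 controls, and its spread was assumed to be that of the controls. In that comparison the median log2 fold change was 1.26, and 43 members passed the rule, 40 of them among the 42, which describes this 1 library and is no replicate check.

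Genes of the same machinery outside the set were compared by further lists. Beside the counts of each list stand the shares over all genes tested. Of these, 2.74% were called higher and 4.59% lower, and by adjusted p alone 21.1% rose and 22.4% fell. Of 34 other spindle and cytokinesis genes, 28 were called higher and none lower, with a median log2 fold change of 1.34, from 0.01 for *Ensa*, a phosphatase inhibitor gene, to 1.90 for *Troap*, the gene of a protein needed for spindle assembly. *Troap* was at 9.18, 11.6 and 11.5 CPM in the controls and 42.4, 38.2 and 40.2 CPM after LiCl, and its change was larger than that of any member. Of 28 other kinetochore genes, 14 were called higher and none lower, with a median of 1.01, from -0.13 for *Cenpx* (adjusted p = 0.23) to 1.52 for *Nsl1*, a MIS12 complex gene. Of the 4 other condensin subunit genes, *Ncapd2* (1.21) was called, and all 4 rose by adjusted p, the least in *Ncapd3* (0.29).

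The other APC/C genes and the cohesin genes had smaller medians. With 2.74% of all genes tested called higher, lists this short would hold few or no called genes, so that their lack of calls is near that share. By adjusted p alone, 21.1% of all genes tested rose and 22.4% fell. Of 16 other APC/C genes none was called, 8 rose and 2 fell by adjusted p, and the median log2 fold change was 0.19. They ran from -0.29 (SE 0.07, adjusted p = 0.011) for the subunit gene *Anapc13* to 0.71 (SE 0.06, adjusted p = 2.4e-05) for *Fbxo5*, the gene of the APC/C inhibitor EMI1. Of 12 cohesin genes none was called, 7 rose and none fell by adjusted p, and the median was 0.18, from -0.07 for the loader gene *Nipbl* (adjusted p = 0.66) to 0.95 for *Esco2*, which acetylates cohesin in S phase.

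The 49 DNA replication and G1/S genes had a median between that of the mitotic members and those of the APC/C and cohesin lists. By adjusted p 39 rose and 2 fell, with a median log2 fold change of 0.53, and 5 were called higher, namely *Mcm10*, *Cdt1*, *Orc1*, *Dbf4* and *E2f1*. *E2f1*, a transcription factor gene of S phase entry, had the largest change, 1.399 (SE 0.09, adjusted p = 6.1e-06). The 2 that fell were the cyclin E genes, which act at the start of S phase. *Ccne1* was at 25.4, 25.4 and 25.8 CPM in the controls and 17.4, 17.7 and 21.6 CPM after LiCl, a log2 fold change of -0.43 (SE 0.09, adjusted p = 0.0035). *Ccne2* was at 20.3, 18.4 and 19.97 CPM in the controls and 13.5, 15.0 and 14.5 CPM after LiCl, a log2 fold change of -0.45 (SE 0.08, adjusted p = 0.0015). In both genes all LiCl samples lay below all controls, the opposite of the cyclin B genes. The medians of the lists were not tested against each other.

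**Figure D5:**
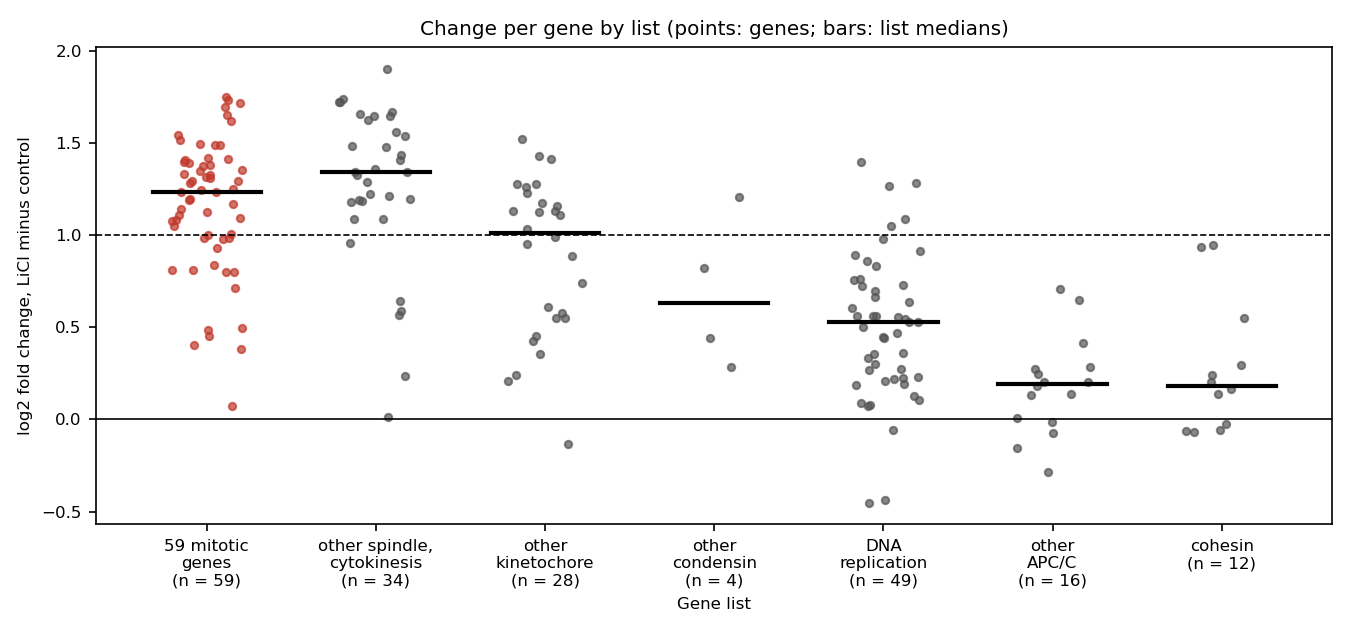
Log2 fold change (LiCl minus control) of every gene of the 59-member set and of 6 other lists, 1 point per gene with the median as a bar and the threshold of 1 as a broken line. The medians are 1.23 for the members, 1.34 for other spindle and cytokinesis genes, 1.01 for other kinetochore genes, 0.63 for other condensin genes, 0.53 for DNA replication, 0.19 for other APC/C genes and 0.18 for cohesin.

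Some values are uncertain from the way reads are assigned to genes. For 10 members, exons overlap those of a gene on the opposite strand that has at least 10% of the member's counts. These are *Ccna2*, *Cdc20*, *Cdc25b*, *Cdca8*, *Cenpk*, *Fzr1*, *Ncapg*, *Pkmyt1*, *Prc1* and *Sgo2a*. Although the library kit keeps strand, the strand setting of the counting is not given in the sources used here. *Cks1b*, *Ccnb1* and *Ccnb2* have near copies or pseudogenes that could share reads with them.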

How the data were processed

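RNA of 6 ureter cultures (3 LiCl, 3 control) had been sequenced as stranded, poly-A selected libraries. The authors deposited raw read counts per gene, which the study's methods credit to featureCounts on the GRCm39 genome, and FPKM per gene and sample, for which the making is not given in the sources used here. The aligner is HISAT2 in the study's methods, whereas the submitters' processing notes list STAR 2.7, with fastp 0.23, featureCounts 2.0 and DESeq2 1.40. The strand setting and the annotation release are not given in the sources used here.

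The deposited counts of all genes were filtered with filterByExpr, scaled by TMM and tested with edgeR 4.0.16 (R 4.3.3) by the quasi-likelihood test with the group as the only term. The p-values were adjusted by Benjamini-Hochberg over the 18188 genes tested. Thresholds (adjusted p 0.05, log2 fold change 1) follow the study's methods. SE is the log2 fold change divided by the root of the F statistic, and intervals are 95% intervals from the same fit. Deposited FPKM were used for levels per length, for ratios and in alternatives with limma 3.58.1. Totals were 28473436 to 31266945 counts and the common dispersion was 0.0066; counting error adds to this spread, the more so for genes with few counts such as *Cenpk* (lowest count 264). The script was tested on simulated counts with known changes.

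The members and lists were chosen with earlier results of these data known. Each member could be named; values in every sample were given for the largest and the smallest change in each step and for a fixed set of core genes, and *Cenpf* and the DNA replication genes beyond the ends of their list were added after their values were seen. Symbols came from GENCODE vM21 for 52073 of 56748 identifiers, and promoters from RefSeq on GRCm38.p6, whose coordinates are not those of the counts. Alternatives were other scalings, filters and tests (DESeq2 1.42.0, glmTreat, limma), a replicate block and the omission of samples.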

Additional observations from a re-analysis of the deposited data

How the results depend on the processing

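No log2 fold change of a member changed sign under any of the 17 alternatives, and 58 members rose by adjusted p alone in each of them for which that count was made. The number of members called higher was 42; it was 27 when the change itself was tested against a log2 fold change of 1 (glmTreat), which is a stricter test by construction. Under glmTreat the count fell from 14 to 6 for the other kinetochore genes and from 5 to 3 for the DNA replication genes. By step, glmTreat called 4 genes of mitotic entry, 3 of the passenger complex, 2 of the kinetochore and 2 of anaphase. The members' median of 1.23 was 1.12 with limma on log2(FPKM + 1), where the pseudocount lowers the changes of genes with low values. The other scalings, filters, DESeq2 and limma with either pseudocount (0.1 or 1) gave 38 to 46 called members. With no filter on low counts, *Ccna2*, *Mad2l1*, *Cenpn* and *Racgap1* were called in addition to the 42. Leaving out 1 sample at a time gave 41 to 45 called members and medians of 1.19 to 1.28. With library size as the only scaling, 58 members had groups that did not overlap.

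Controls and LiCl samples share replicate numbers. The deviations of samples with the same number had correlations of 0.03, -0.09 and 0.10 over all genes and -0.34, -0.56 and 0.01 over the members. With 3 samples in each group these values cannot settle whether the numbers mark pairs, and the main test did not pair the samples. With the replicate block 43 members were called and the median was 1.24. Depth limits the precision most for the members with few counts, of which *Cenpk* had the lowest, 264.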
